A study of Drosophila melanogaster with 3 samples.

Results

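Isolated single sites are FMRP contacts that had no other contact on the same strand within 1000 nt on either side. Of 45815 sites on chromosomes 2L, 3L, 3R and X, 540 met this rule (1.18%, 95% interval 1.08 to 1.28), and the list of the whole series held 60497 sites. The other 45275 sites on these 4 chromosomes are the comparison throughout. Members were chosen by the measured positions of the sites alone, so neither the distances nor the thinness of sites around a member is a finding. Scores took no part in the choice.

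The sites came from enhanced CLIP of whole adult Drosophila melanogaster, in which ultraviolet light fixes protein to RNA before the protein is pulled down. There were 2 FMRP immunoprecipitate libraries, taken with FLAG beads and labelled as intestinal progenitor cells, and 1 size-matched input library, labelled as all cells. Each was made from 200 flies, 100 of each sex, ground to powder before exposure. The labels name no genotype, no tag and no driver, so the cells in which tagged FMRP was made are not given. The deposited list has 1 position and 1 score per site and nothing per library. Depth is therefore unknown, no variation between the immunoprecipitates could be measured, and no test between libraries was made.

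FMRP is the protein lost in fragile X syndrome. Its fly homologue binds RNA, represses translation of many mRNAs and takes part in RNA granules, and it is best known from neurons. In the fly gut it acts in progenitors, the stem cells and undifferentiated daughters that renew the epithelium. In CLIP data a protein held on an RNA over a stretch of bases usually leaves a cluster of neighbouring crosslink positions. A site with no neighbour is the opposite pattern, and such sites are commonly treated with more caution than clusters.

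Most isolated sites lay outside the genes that the authors named as targets. Of the 540, 158 fell within the span of a target gene (29.3%, 95% interval 25.5 to 33.3), against 43440 of the other sites, or 95.9%. A further 276 isolated sites lay only in spans of genes not on the target list (51.1%, interval 46.8 to 55.4), against 949 of the other sites (2.10%). The remaining 106 lay outside every gene span (19.6%, interval 16.4 to 23.2), against 886 of the other sites, or 1.96%. Spans are those of the RefSeq gene table of Release 6, which gives neither strand nor exons, so a site in a span can be intronic or antisense. Intervals are exact Clopper-Pearson intervals for counting error only, and they treat sites as independent.

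**Figure D1:**
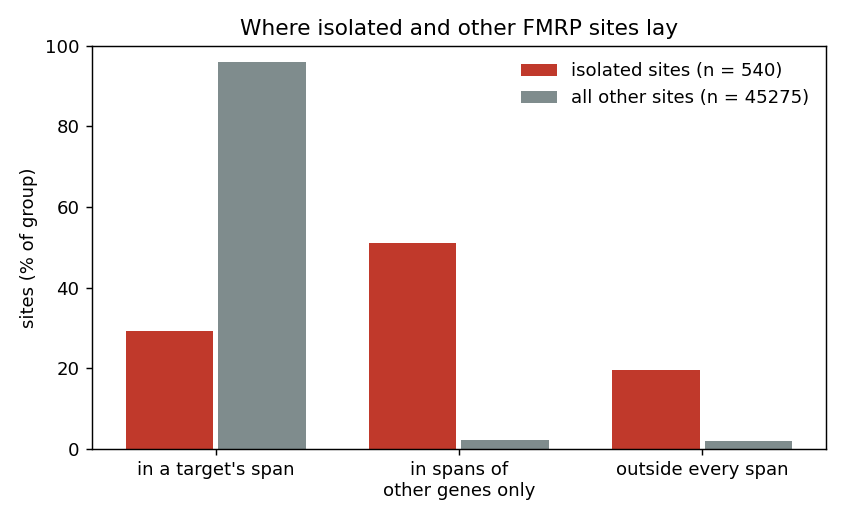
Bars give the percentage of isolated sites (left, red) and of all other sites (right, grey) in each kind of place. Isolated sites stood at 29.3% in target spans, 51.1% in spans of other genes only and 19.6% outside spans, against 95.9%, 2.10% and 1.96% of the other sites.

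The target list and isolation were closely tied at the level of genes. Among protein-coding genes whose sites were all isolated, 0 of 215 were on the target list, which allows a share of up to 1.70%. Among coding genes with at least 1 site that was not isolated, 1214 of 1566 were targets (77.5%, interval 75.4 to 79.6). Of the 215 genes, 198 held 1 site in their span, 14 held 2, 2 held 3 and 1 held 4. Non-coding genes gave the same count: 0 of 39 genes with only isolated sites were targets, against 177 of 239 with other sites (74.1%). All 39 held 1 site in their span. Among non-coding genes with 1 site that was not isolated, 2 of 13 were targets (15.4%, interval 1.92 to 45.4).

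Site number alone also went with target status. Of the coding genes with 1 site in their span, 0 of 198 whose site was isolated were targets, and 0 of 8 whose site was not isolated (upper limit 36.9%), so in this class, which held most genes with only isolated sites, both counts were 0. Of the coding genes with 2 sites in their span, 0 of 14 with both sites isolated were targets (upper limit 23.2%), against 46 of 179 with at least 1 site not isolated (25.7%, interval 19.5 to 32.8). At 3 sites the counts were 0 of 2 with only isolated sites, against 48 of 116 (41.4%). The share reached 80.5% for 5 to 9 sites and 94.8% for 10 or more, where every gene had sites that were not isolated. All 158 isolated sites in targets were in genes that also held sites that were not isolated. The rule that made the target list is not given in the sources used here, and the list may have been built from these same sites.

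**Figure D2:**
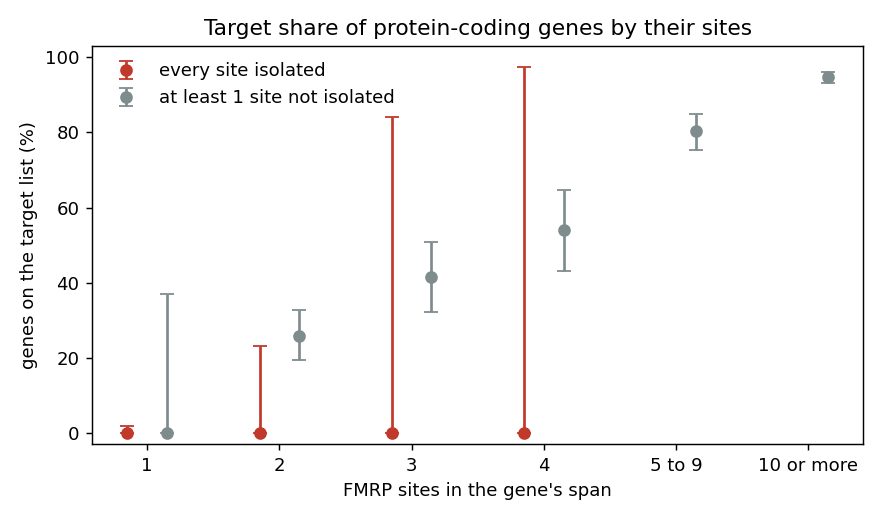
Points give the percentage of protein-coding genes on the target list, by the number of FMRP sites in the gene's span, for genes with only isolated sites (red, left) and genes with at least 1 site that was not isolated (grey, right). Bars are exact 95% intervals for counting error. Genes with only isolated sites stood at 0 in the classes that held any, 1 to 4 sites, and the other genes stood at 0 with 1 site and at 94.8% with 10 or more.

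Among coding genes that held 1 site in all, some of the sites had high scores. The score was assigned to each site by the authors, its unit is not stated, and a higher value is read here only as a higher rank in the list. Counting the 174 such genes whose site lay in no other span, the median score was 2.71, with quartiles of 0.715 and 10.5. Cep97, which encodes a centriole protein with a role in cilia, had a site of score 105. Jhbp3, named for binding of juvenile hormone, had 64.7, and Shaw, a voltage-gated potassium channel gene, had 60.3. These genes were off the target list, although their sites ranked above most of the list.

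The next genes in that order had scores between 32.7 and 53.2 at their lone sites. caup, an Iroquois homeobox gene, and Dbp80, a DEAD-box RNA helicase gene, both had a site of score 53.2. pasha, whose product works with Drosha in cutting microRNA precursors, had 51.6. tld, the tolloid metalloprotease gene of BMP signalling, had 49.5. CG11581 had 47.6, CG14853 had 43.9 and CG11560 had 32.7. None of these genes held a second site.

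The span of the genes that held isolated sites depended on whether they held other sites. In all, 332 protein-coding genes had an isolated site assigned to them, 302 with 1, 27 with 2 and 3 with 3 or more. Their median genomic span was 11332 nt, against 7010 nt for the 1317 coding genes with other sites assigned to them. It was 2169 nt for all 10991 coding genes on these chromosomes. Among the 332 genes it was 19687 nt for the 137 with assigned sites that were not isolated. It was 6292 nt for the 174 that held 1 site in all. Of the 366 isolated sites in coding genes, 157 lay in genes with assigned sites that were not isolated, and their median score was 1.24. The other 209 lay in genes with no such assigned site, and their median score was 2.66. Sites in several spans at once were not assigned to a coding gene, so some of these genes held more sites in their span. Dh31, for example, had 1 assigned site and 21 in its span.

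Pde6, a cyclic nucleotide phosphodiesterase gene, had the most isolated sites, 4 among its 52. Their scores were 47.6, 10.3, 0.925 and 0.142. The site of score 10.3 lay on the plus strand, opposite the gene's other sites. Ten-a, a teneurin adhesion gene, had 3 sites, all isolated, with scores of 19.6, 8.39 and 0.298, and it was not a target. Dhc93AB, an axonemal dynein heavy chain gene, had 3 isolated sites among its 13, with scores of 4.88, 1.19 and 0.103.

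Genes with 2 isolated sites included kirre, an adhesion gene of myoblast fusion, with scores up to 57.0 among 80 sites in its span. CG42340 had only 2 sites, with scores of 430.1 and 25.2, on opposite strands. vex had scores of 42.0 and 14.0, again on opposite strands. bru3, a Bruno-family RNA-binding protein gene, had 28.9 and 8.75. zyd, a calcium exchanger gene, had 30.8 and 0.243, and Ccdc85 had 27.1 as its higher score. Of these genes only kirre was a target. Sox100B, a Sox transcription factor gene of the gut, was a target with 10 sites, and its isolated sites scored 27.9 and 0.697.

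Isolated sites within genes that had many other sites fell into different patterns by strand. For 115 isolated sites, the gene had at least 5 other sites that were not isolated, with at least 95% of them on 1 strand. The isolated site was on the opposite strand in 17 cases (14.8%, interval 8.85 to 22.6) and on the same strand in 98. Since the rule counts neighbours on 1 strand, a lone site opposite a dense run can be a member even inside the run.

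The opposite-strand sites had higher scores. Their median score was 12.1, with quartiles of 8.75 and 19.9 and a range of 1.19 to 265. The same-strand sites had a median of 0.924, with quartiles of 0.431 and 2.72 and a range of 0.0161 to 57.0. Scores above 10 were found in 12 of the 17 and in 11 of the 98. The median distance to the nearest same-strand site was 48132 nt for opposite-strand sites and 2234 nt for same-strand sites. The rule used this distance, and the grouping largely sets it, so it is no finding. An opposite-strand site has few or no same-strand neighbours in its own gene. Scores on the evenly spaced steps described below were found in 8 of the 17 and in 6 of the 98. The part of distance or of these steps in the difference of scores was not tested.

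PIG-S, a subunit gene of the GPI transamidase, carried the highest-scoring opposite-strand site, 265 at position 24914832 of 3R on the plus strand, 262 nt from a site on the minus strand. The dystrophin gene Dys had 25.5, mask, a cofactor gene of Hippo signalling, 23.0, and Neto, a gene of glutamate receptor clustering, 21.5. In mask the isolated site lay 29 nt from a site on the other strand, among 327 sites in the gene's span. In nej, the fly CBP acetyltransferase gene with 167 sites, the distance was 99 nt and the score 5.0. In kuz, the ADAM protease gene that cleaves Notch, it was 74 nt and the score 8.39. Of all isolated sites, 17 had an opposite-strand site within 1000 nt (3.15%, interval 1.84 to 4.99), against 907 of the other sites (2.0%).

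The scores of isolated sites were spread more widely than those of other sites. The median was 3.11 with quartiles of 0.792 and 12.2, against 2.71 with quartiles of 1.07 and 6.10 in the other sites. Scores above 10 made up 176 of 540 (32.6%, interval 28.7 to 36.7), against 13.5% of the other sites. Scores under 1 made up 30.9% (interval 27.0 to 35.0), against 23.7%. Between 3 and 6, where 21.3% of the other sites lay, there were 8.89% of isolated sites. These bounds mark a gap in the scores of the isolated sites themselves, so this contrast is a description only.

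The order of the medians depended on the distance rule. With 500 nt in place of 1000 nt the median was 2.57 in isolated sites and 2.72 in the others. With 2000 nt it was 5.01 in isolated sites and 2.71 in the others. The share above 10 was higher in isolated sites in both cases, 27.8% and 37.1% against 13.5% each. The list's highest score, 708.4, was shared by 18 sites, and 0 of them were isolated.

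**Figure D3:**
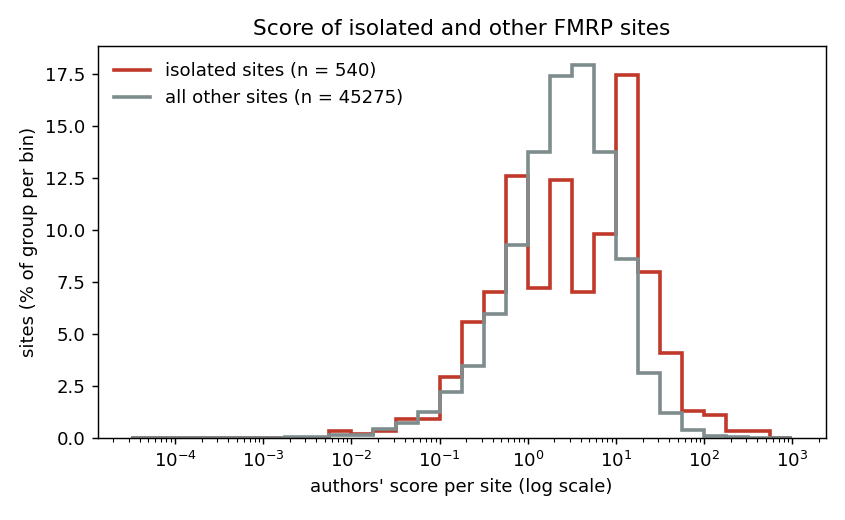
Lines give the percentage of isolated sites (red) and of all other sites (grey) in bins of the authors' score, on a log axis. The other sites form 1 peak around their median of 2.71, and isolated sites have fewer sites there and more below 1 and above 10.

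Scores did not follow distance in 1 direction. Among sites that were not isolated, the median score was 3.30 with a neighbour on the next base, 1.73 at 2 to 10 nt, 1.46 at 11 to 100 nt and 1.07 at 101 to 1000 nt. Among isolated sites it was 1.0 at 1001 to 2000 nt (n = 84), 2.28 at 2001 to 10000 nt (n = 141), 6.89 at 10001 to 100000 nt (n = 260) and 8.39 beyond 100000 nt (n = 55). The least crowded sites thus had a higher median score than sites in unbroken runs. The share of sites with exactly the same score as another site of the list also changed with distance. It was 8.93% with a neighbour on the next base, 36.9% at 1001 to 2000 nt and 54.5% beyond 100000 nt. Its part in the medians was not tested. The makeup of places changed along the same bands: target spans held 70.2%, 39.0%, 15.4% and 7.27% of the isolated sites, and 4.76%, 15.6%, 23.8% and 32.7% lay outside spans.

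Place and distance were therefore looked at together. Within target spans the median score was 0.880 for the 114 isolated sites with a neighbour within 10000 nt and 10.3 for the 44 beyond it. Within spans of other genes only, the medians were 1.34 (n = 85) and 3.90 (n = 191). Outside spans they were 12.0 (n = 26) and 10.4 (n = 80), so the difference by distance was not seen there. At the edge of the rule, the 15 sites at 1001 to 1100 nt had a median of 1.03 and the 14 at 901 to 1000 nt a median of 1.04. Of these, 8 of 15 and 11 of 14 were in target spans.

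**Figure D4:**
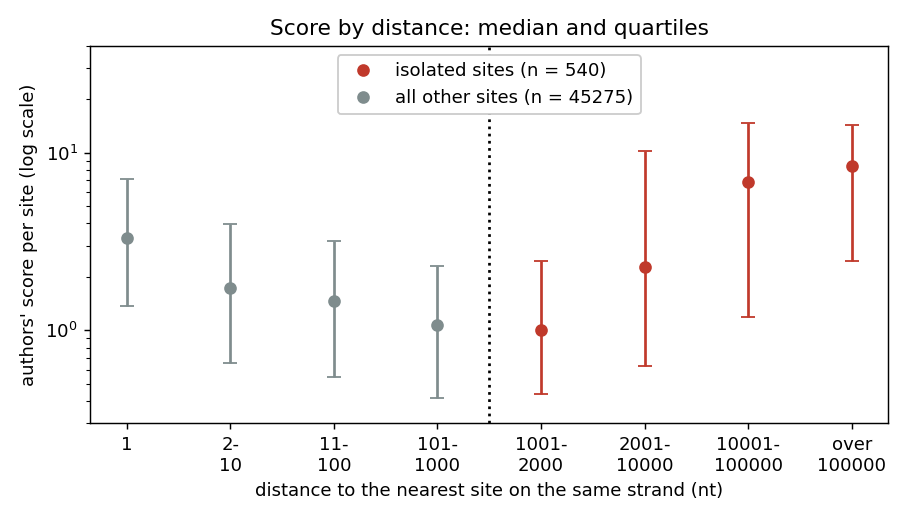
Points give the median of the authors' score, on a log axis, by distance to the nearest same-strand site, and bars give the quartiles. Isolated sites are right of the dotted line in red, and other sites left of it in grey. The median fell to 1.07 at 101 to 1000 nt and was 8.39 beyond 100000 nt.

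The scores of isolated sites recurred at evenly spaced values. Exactly the same deposited score was found at another site of the list for 272 of the 540 isolated sites (50.4%, interval 46.1 to 54.7), against 5849 of the other sites (12.9%). The most common was 8.39462, at 22 isolated sites of the 29 sites in the list that held it. It was followed upward by 10.2637 at 17 isolated sites, 12.1327 at 9, 14.0016 at 15, 15.8704 at 12, 17.739 at 5, 19.6076 at 6 and 21.4761 at 8. Neighbours in this series differed by 1.87 each time, from 1.8691 between the lowest pair to 1.8685 between the highest.

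The steps were taken from the scores of isolated sites themselves, so a count of sites on them describes those sites and is no independent comparison. A score was counted as on a step if it was within 0.01 of the lowest value plus a whole number of mean steps, starting 1 step below 8.39462. By that count 116 of the 224 isolated sites in this range of scores were on a step (51.8%, interval 45.0 to 58.5), against 132 of 10553 other sites (1.25%, interval 1.05 to 1.48). Among these isolated sites it was 95 of 171 with the nearest site over 10000 nt away (55.6%), and 21 of 53 with it nearer (39.6%). The 8 scores that set the steps accounted for 94 of the 116. Without sites at these 8 scores, 22 of 130 isolated sites were on a step (16.9%, interval 10.9 to 24.5), against 130 of 10551 other sites (1.23%). The 22 include isolated sites at 6.52541, a score that 5 sites of the list shared and that lay below the lowest score searched, 8. They are therefore not free of recurring scores either. The spacing narrowed slightly as scores rose, so a fixed step can miss high scores of the same series, and no isolated site above 40.1547 was counted. Taken over all 540 isolated sites, including those with scores too low to be counted, 21.5% were on a step. By place it was 39.6% of those outside spans, 19.6% of those in spans of other genes and 12.7% of those in target spans. These shares by place also depend on how many sites had scores high enough to be counted. How the score was computed is not given in the sources used here, and the origin of the steps was not tested. Without the sites counted on steps the median of isolated sites was 2.08, against 2.697 in the others, and the share above 10 was 20.5%, against 13.4%. Scores off these steps also recurred among the isolated sites left. Of these, 6.89016 was held by 8 sites of the list, and 10.6185 and 14.3515 by 4 each. The 20.5% is therefore not a share free of recurring scores.

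**Figure D5:**
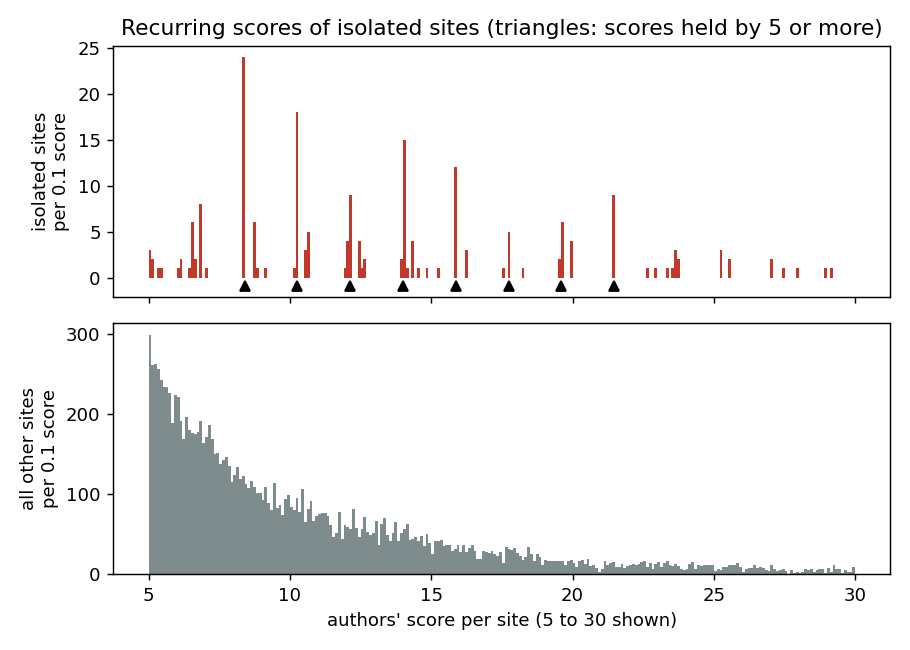
Bars count isolated sites (top, red) and all other sites (bottom, grey) per 0.1 of the authors' score between 5 and 30. Triangles mark the scores above 8 that at least 5 isolated sites shared, from 8.39462 to 21.4761. The isolated sites stand in spikes at these values, and the other sites fall off without such spikes. Smaller spikes of isolated sites without a triangle are also seen, such as 8 sites at 6.8 and 6 at 8.7.

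The 10 isolated sites with the highest scores were mostly outside target genes. Of these, 5 lay outside gene spans, 3 in spans of other genes and 2 in targets. The highest score, 430.1, was that of the CG42340 site at position 6483370 of X on the plus strand. The next, 322, lay at 309232 of 2L on the plus strand, where the phospholipase C gene Plc21C and lncRNA:CR43719 overlap. It was followed by the PIG-S site. ABCA, an ABC transporter gene on the target list, had a site of score 109 at 21299915 of X on the minus strand, and Cep97 was the other gene in this group.

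The highest-scoring of the sites outside spans had a score of 229 at 18064530 of 3R, 11546 nt from the span of the FGF receptor gene htl. A score of 177 lay at 28121110 of 3R, 16537 nt from lncRNA:CR46077. Next was 139 at 12437638 of 3L, 4970 nt from the homeobox gene toe. The last of this group were 121 at 31378496 of 3R, 3613 nt from CG1607, and 102 at 22592845 of 2L, 7002 nt from Slmap. Scores above 50 were held by 22 isolated sites (4.07%, interval 2.57 to 6.10), against 0.691% of the other sites. Of the 22, 4 were in targets (18.2%, interval 5.19 to 40.3), against 29.3% of all isolated sites. The nearest site was more than 10000 nt away for 16 of the 22 (72.7%, interval 49.8 to 89.3), against 58.3% of all isolated sites, and both intervals hold the share of all isolated sites.

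At the other end, the lowest scores belonged to sites in spans of protein-coding genes. Csp, a synaptic vesicle co-chaperone gene, had an isolated site of 0.00659, velo, a SUMO protease gene, one of 0.00850, and the progenitor gene hdc one of 0.0161. Oatp30B, an anion transporter gene, had 0.0213, and the transcription factor gene NFAT had 0.0294. Csp, hdc and NFAT were targets and held other sites, whereas velo and Oatp30B held 1 site each and were not targets.

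The 5 sites farthest from any neighbour, a measure the rule used, are given as a description, and 4 of them were on 3L. The greatest distance, 440488 nt, was that of a site of score 16.2 in Snap25, a SNARE gene of synaptic vesicle release, at position 24186755. A site at 26852784, outside every span, was 434906 nt from its nearest neighbour and scored 5.02. That neighbour was the Dbp80 site, which was itself 366655 nt from its nearest neighbour. The site of scro, an NK-family homeobox gene, was 361242 nt away and scored 4.66. The fifth, on 3R at 3360987, was 360460 nt away and scored 2.77. The median over all isolated sites was 17540 nt, with quartiles of 3009 and 48716.

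Most isolated sites outside gene spans lay more than 1000 nt from the nearest span, and most lay within 5000 nt of it. Of the 106, 20 were within 500 nt of a span, 33 within 1000 nt and 69 within 5000 nt, and the median distance was 2794 nt. The nearest span was that of a target for 14 of them. Their median score was 10.6, with quartiles of 5.02 and 19.9, against 6.05 in the 886 other sites outside spans. It was 10.6 both within 1000 nt of a span and beyond it. Transposons and other repeats are not in the gene table and were not used here, so sites in them count as outside spans.

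By RNA class, 366 isolated sites lay in the span of a single protein-coding gene (67.8%), against 86.8% of the other sites, and 40 lay in several spans at once (7.41%), against 7.96%. Non-coding RNA genes held 26 of the 540 (4.81%, interval 3.17 to 6.98), against 1289 of the other sites, or 2.85%. Long non-coding RNA genes had 9 isolated sites (1.67%, interval 0.765 to 3.14), against 39 of the other sites (0.0861%). Small RNA genes had 17 (3.15%, interval 1.84 to 4.99), against 1250 (2.76%). The snoRNA genes, guides of RNA modification, had 588 of the other sites and 0 isolated ones. A small RNA gene is shorter than the distance in the rule, so any second site in it bars isolation.

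The tRNA genes held 13 isolated sites, with a median score of 6.46 against 10.9 for the 459 other sites in tRNA genes. tRNA:Ser-GCT-2-5 had 29.2, tRNA:Gln-TTG-2-1 23.5, tRNA:Leu-CAG-1-4 19.6, tRNA:Ile-TAT-1-1 17.5 and tRNA:Thr-AGT-1-7 14.5. None of the 13 tRNA genes was itself on the target list. tRNA genes of a family have near-identical copies, so reads can be split among them and the position of such a site is uncertain.

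None of the microRNA, spliceosomal RNA and long non-coding RNA genes with an assigned isolated site was on the target list either. The isolated sites in microRNA genes were in mir-252 with a score of 12.6, mir-let7 with 4.92 and mir-2b-1 with 1.40. mir-let7 encodes the let-7 microRNA of developmental timing. The U2 spliceosomal RNA gene snRNA:U2:38ABa had a site of 10.5, and U2 genes also have near-identical copies. The 5 highest of the 9 lncRNA sites had scores of 53.2 in lncRNA:CR45747, 36.4 in lncRNA:CR43706, 15.9 in lncRNA:CR45788, 10.6 in lncRNA:CR46003 and 10.3 in lncRNA:CR46454. The other 4 had scores of 6.89, 4.98, 0.700 and 0.173. An isolated site of 19.6 lay in the pseudogene 28SrRNA-Psi:CR41609, opposite its other 28 sites, and the last member, of score 2.70497, lay in pre-rRNA:CR45856. Both of these genes were on the target list. The span of pre-rRNA:CR45856 held 97 sites, and isolated sites of 16.3 and 10.2 in it also lay in spans of rRNA pseudogenes.

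Genes listed for intestinal progenitors and other cells were then checked for isolated sites. Contacts of any kind were found in 13 of the 14 progenitor genes on these chromosomes, with Su(H), the transcription factor gene of Notch signalling, as the exception, against 1781 of all 10991 coding genes there (16.2%). The counts with any site were 8 of 12 for germline and ovary genes, 6 of 11 for muscle, 4 of 7 for fat body, 5 of 10 for neuronal, 3 of 7 for enterocyte, 3 of 11 for enteroendocrine and 1 of 9 for testis genes. The lists were chosen with earlier results of these data known and were not matched for span, so these counts are a description only. Over all protein-coding genes with a site, 390 of 1781 held an isolated site in their span, or 21.9%. In the progenitor list, 4 of the 13 genes with a site held one: klu, Sox100B, hdc and spdo. hdc, the headcase gene of undifferentiated cells, had 2 isolated sites among 313, with scores of 0.785 and 0.0161. spdo, a regulator of Notch in asymmetric division, had a site of 0.484, which also lay in the span of PH4alphaEFB. klu, a zinc finger gene of enteroblasts, had its only site at 0.739 and was not a target.

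In the list of neuronal genes, 4 of the 5 with a site held an isolated one. Syt1, the calcium sensor of synaptic vesicle release, had 2 sites in its span, both isolated, of score 68.9 and 0.299, and was not a target. The site of score 68.9 also lay in the span of lncRNA:CR43821. elav had 2.22 among 24 sites, at a position that the spans of arg and lncRNA:enrr also held. futsch, the MAP1B homologue, had 0.793 among 41, and Csp was given above. Dh31, a peptide hormone gene of enteroendocrine cells, had an isolated site of 51.4, and the muscle myosin gene Mhc had one of 4.01. Of RNA granule genes, 2 of 11 with a site held one, pum with 3.47 and Patr-1 with 4.56. Of earlier fly FMRP targets, 1 of 6 did, futsch. Of enteroendocrine genes 1 of 3 with a site held one, and of muscle genes 1 of 6. Of the genes with a site on the enterocyte, germline and ovary, fat body and testis lists, 0 held an isolated one, out of 3 enterocyte, 8 germline and ovary, 4 fat body genes and 1 testis gene.

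Isolated sites were a similar share of sites on each chromosome. They made up 1.25% of sites on 2L, 1.18% on 3L, 1.12% on 3R and 1.19% on X, with overlapping intervals. Target spans held 22.6% of them on 2L, 25% on 3L, 33.3% on 3R and 33.8% on X, each far below the lowest value among other sites, 93.3% on X. The median score was 4.64 on 2L and 4.63 on 3L, against 2.72 and 2.67 in the other sites there. On 3R it was 2.45, below the 2.695 of the other sites, and on X it was 3.08, against 2.76. The strands were almost balanced, with 264 isolated sites on the plus and 276 on the minus strand.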

How the data were processed

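The authors deposited a list of 1 nt sites with a score and a list of target names. The score has no stated unit. Neither the site caller nor the build, pooling or use of the input is given in these sources. Listed in the submitters' processing notes, without roles, are DESeq2, SAMtools 1.10, UMI-tools, cutadapt 2.9 and STAR 2.7.3a. The other columns the authors deposited (positions, strand, a constant state, names) were used as given.

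All 1829 target names matched the RefSeq Release 6 gene table, 1753 by symbol, 35 by locus tag, 30 by synonym and 11 by hand. To check the build, sites on 2L, 3L, 3R and X were placed in target spans: 95.2% fell there, against 22.4% and 22.3% after shifts of 100000 nt. A site went to the smallest small-RNA gene holding it, otherwise to its only span. Target share counts any span. Isolation means over 1000 nt to every same-strand site.

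No test was made, since there are no values per library; shares have Clopper-Pearson intervals (scipy 1.17.1). The code was tested on simulated sites. Members, gene lists and naming rules (highest and lowest scores, farthest sites, most isolated sites, list members) were chosen with earlier results of these data known. The step count, the strand comparison and the target share by number of sites were chosen after seeing the data. Alternatives were distance, strand, score minimum, span margin and merged runs. The planned naming of sites near gene starts was not run, since the annotation used here gives no strand.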

Additional observations from a re-analysis of the deposited data

How the results depend on the processing

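Of 33 alternative values, 21 stayed within the counting interval of the reported value (for the number of sites, within 1.5 times) and 12 did not. The number of isolated sites was 1277 with runs of gaps up to 10 nt merged to 1 unit, of which 737 were runs of several sites. The median score of isolated sites was 2.57 at 500 nt, 5.01 at 2000 nt, 6.34 with only sites at or above the list's median score, 5.91 with merged runs and 2.08 without sites on the score steps, an alternative chosen after seeing the data. In the other sites the median was 6.25 with the score minimum and 3.18 with merged runs. With the score minimum the share above 10 was 32.5% in isolated sites, against 27.7% in the others, a smaller gap than the 32.6% against 13.5% of the full list. The share in target spans was 38.2%, 21.7%, 53.1% and 47.5% at 500 nt, at 2000 nt, with the score minimum and with merged runs, below the share of other sites in each. The share outside spans was 15.9% with spans widened by 500 nt and 15.1% without sites on the steps. No paired analysis was possible because the lists hold no values per library, and for the same reason no replicate could be left out. Depth is unknown, so nothing can be said of how many reads stand behind an isolated site.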
